A study of Danio rerio with 24 samples.

Results

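Skeletal muscle of untrained zebrafish that overexpress PGC1alpha was compared directly with skeletal muscle of trained wild-type zebrafish. The first group (untrained_TG, called transgenic below) carries the genotype actc1b:PGC1alpha and was not exercised, and the second (trained_WT, called trained below) is wild type and went through chronic exercise. Libraries were assigned by these labels, and the groups to compare were chosen with earlier results of these data known. There were 7 transgenic libraries, replicates 1 to 7, and 7 trained libraries, replicates 1 to 6 and 8. They make 14 of the 21 libraries analysed and of the 24 samples labelled. Another group of 7 libraries, from separate samples of untrained wild-type fish, gives a level with neither the transgene nor training. Transgenic replicate 8, trained replicate 7 and untrained wild-type replicate 1 were not analysed here. All fish were adults with an age label of 4 months. The labels name the transgene after actc1b, a muscle actin gene, and do not say which species its PGC1alpha comes from, whether 1 line or clone was used, or whether a sample is 1 fish or a pool. P-values therefore measure the spread between these samples. The compared groups differ in genotype and in training at the same time, so within this contrast the transgene and the lack of exercise cannot be told apart.

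PGC1alpha is a transcriptional coactivator. It has no DNA-binding domain of its own and works with nuclear receptors and other factors, among them the oestrogen-related receptors, to raise the transcription of nuclear genes of mitochondrial energy metabolism. In mammals endurance exercise raises its activity in muscle for a time, and muscle-specific overexpression in mice gives a redder, more oxidative muscle. Fish trunk muscle is mostly white, fast and glycolytic, with a thin superficial layer of red, slow and oxidative fibres.

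Of 18947 genes tested, 7887 were called at an adjusted p under 0.05 (41.6%; edgeR quasi-likelihood test, Benjamini-Hochberg adjustment over all genes), 3632 of them higher in transgenic muscle (19.2%) and 4255 lower (22.5%). Every transgenic library lay above every trained one for 1557 genes (8.22%) and below every trained one for 2178 (11.5%). These shares are the background for every count of transgenic against trained muscle below, and the median log2 fold change over all tested genes was -0.05. Fold changes are transgenic over trained throughout, on the log2 scale, with standard errors. Among the called genes, 562 were higher by more than 2 log2 units and 827 lower by more than 2. With library totals in place of TMM scaling the split was 2179 higher and 4944 lower, and the median moved to -0.25. Libraries held 42.8 to 78.1 M gene counts in the transgenic group and 72.1 to 78.6 M in the trained one. On the first principal component of the 14 libraries, which took 39% of the variance, the groups did not overlap. Reads without a gene feature came to 9.18% ± 0.577 (SD, n = 7) of reads in transgenic libraries and 5.79% ± 0.259 in trained ones, again without overlap. The part of this difference in the results was not tested.

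The targeted gene was examined first. Zebrafish ppargc1a, the endogenous PGC1alpha gene (ENSDARG00000067829), ranged from 4.97 to 28 CPM in transgenic libraries (median 14.3) and from 7.17 to 39.2 in trained ones (median 21.5). CPM are counts scaled to the TMM-adjusted library size, so they do not add up to the shares of raw counts given below. The groups overlapped and the gene was not called, with a log2 fold change of -0.54 ± 0.42 (95% interval -1.42 to 0.34). A transgene from another species or without the endogenous untranslated regions need not be counted here. With its origin not given, this row cannot be taken to measure the transgene or to check the labels. The paralog ppargc1b, a coactivator of the same family, was higher in transgenic muscle by 0.66 ± 0.24 (adjusted p = 0.0327), with overlapping groups. That call was lost without trained replicate 8 or transgenic replicate 7, among others. The transgene's namesake actc1b ranged from 2230 to 4150 CPM in transgenic libraries (median 3130) and from 18300 to 28900 in trained ones (median 22500), a log2 fold change of -2.84 ± 0.26. Every transgenic library lay below every trained one.

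The tissue label was checked against 14 skeletal muscle genes, all of which were counted. They took 1.58% ± 0.205 of gene counts in transgenic libraries and 10% ± 0.632 in trained ones, without overlap. Mitochondrially encoded genes took 46.8% of counts in transgenic and 11.2% in trained libraries, and these counts are part of the total behind every share. Of the remaining counts the muscle genes took 2.97% ± 0.295 and 11.3% ± 0.837, still without overlap. In the test, 9 of the 14 were called lower and none higher, and 4 of the 14 (mylpfa, tnnc2, tnnt3a and tpma) are also fast fibre genes. The fall was uneven, with log2 fold changes from -4.64 to 1.49 over the 14 genes. Nebulin (neb), the thin-filament ruler, was at a median of 903 CPM against 2440, with a log2 fold change of -1.51 ± 0.19. Desmin a (desma), the intermediate filament that links Z-discs, was at a median of 379 CPM against 821, with a log2 fold change of -1.15 ± 0.18. The myogenic regulator myod1 was not called (0.42 ± 0.31, adjusted p = 0.298), nor was the skeletal actin gene acta1b (0.01 ± 0.49, adjusted p = 0.985). In bulk RNA, fewer cells of a type and less RNA per cell cannot be told apart.

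**Figure D1:**
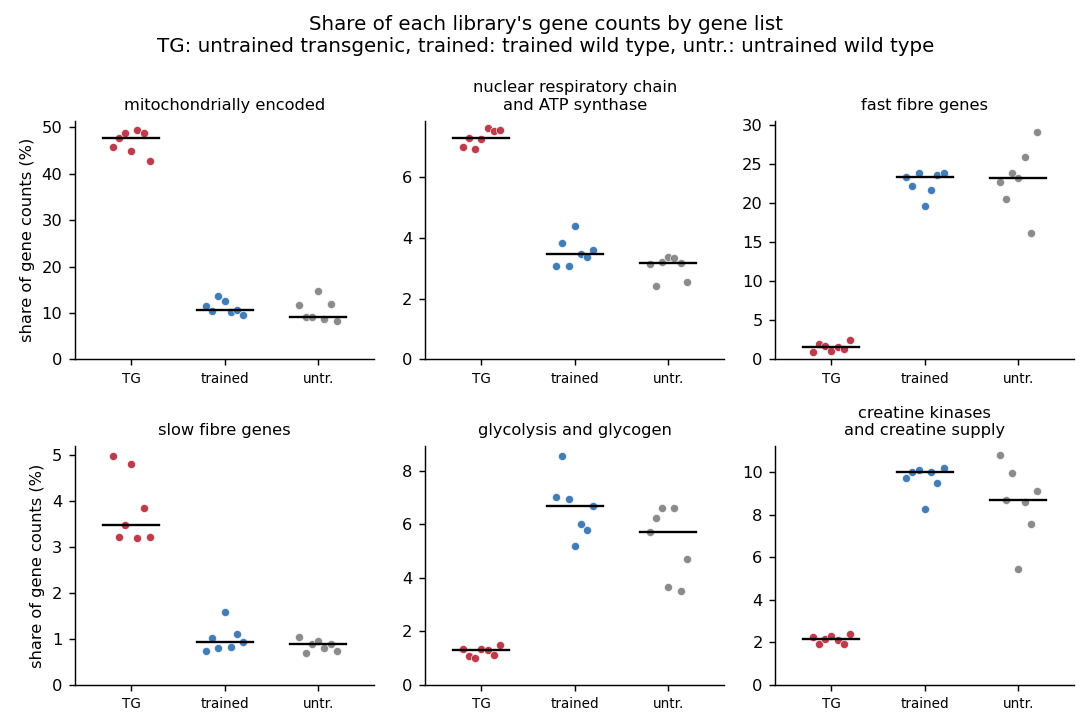
Percent of each library's gene counts taken by 6 gene lists, with 1 point per library (7 per group) and a bar at the group median; the vertical axes start at 0. Mitochondrially encoded genes lie between 42.8% and 49.4% in transgenic libraries and between 9.67% and 13.7% in trained ones, and fast fibre genes between 0.923% and 2.42% against 19.6% to 23.8%.

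Genes of the respiratory chain were higher in transgenic muscle from both genomes. All 13 protein genes encoded in mitochondrial DNA were called higher, with no overlap between groups for any of them and a median log2 fold change of 2.76. Together they took 46.8% ± 2.45 of gene counts in transgenic libraries, 11.2% ± 1.45 in trained ones and 10.5% ± 2.38 in untrained wild type. Cytochrome c oxidase subunit 1, mt-co1, ranged from 146000 to 240000 CPM in transgenic libraries (median 175000) and from 45200 to 73200 in trained ones (median 49500). Its log2 fold change of 1.80 ± 0.18 was the lowest of the 13. The complex I subunit gene mt-nd2 was at a median of 36300 CPM against 4300 (3.02 ± 0.22). The highest value, 4.09 ± 0.26, belonged to mt-nd6, which lies on the opposite strand from the other protein genes. Whether the counting used strand is not given in the sources used here, and without it reads of that gene cannot be told apart from reads of the other strand.

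Nuclear subunits of the same complexes were called higher in 34 of 35 genes of complex I (median log2 fold change 1.1), 5 of 5 of complex II (0.93), 8 of 9 of complex III (1.19), 20 of 21 of complex IV (1.5) and 16 of 16 of ATP synthase (1.29). No member of these 5 lists was called lower. Those not called were ndufa12 of complex I (0.51), uqcrc2a of complex III (0.28) and cox7a2a of complex IV (0.36). These nuclear genes took 7.3% ± 0.265 of gene counts in transgenic libraries, 3.55% ± 0.467 in trained ones and 3.02% ± 0.38 in untrained wild type. Without mitochondrially encoded counts in the total, the shares were 13.8% ± 0.817 and 4% ± 0.533, a difference of 9.76 percentage points. The catalytic beta subunit of ATP synthase, atp5b, ranged from 7940 to 12600 CPM in transgenic libraries (median 9440) and from 2910 to 4780 in trained ones (median 4060), with a log2 fold change of 1.31 ± 0.18. Every transgenic library exceeded every trained library. For the complex I subunit ndufb9 the medians were 506 and 180 CPM (1.57 ± 0.17), and for the complex II flavoprotein sdha they were 1090 and 567 CPM (0.93 ± 0.15). The medians of the 5 nuclear lists lay between 0.93 and 1.5, with single genes from 0.28 to 7.19. The mitochondrially encoded values lay between 1.80 and 4.09, so the ranges overlapped.

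Within complex IV, 2 genes stood far above the list median. The gene ndufa4 (ENSDARG00000056108), once assigned to complex I and now known in mammals as a subunit of cytochrome c oxidase, ranged from 165 to 658 CPM in transgenic libraries (median 432), from 1.28 to 5.38 in trained ones (median 2.5) and from 1.81 to 3.52 in untrained wild type (median 2.51). The log2 fold change was 7.19 ± 0.38 (adjusted p = 5.15e-12). Its relatives ndufa4l and ndufa4l2a were called higher by 1.0 and 1.64. The subunit cox6b1 ranged from 194 to 485 CPM in transgenic libraries and from 6.91 to 80.4 in trained ones, with a log2 fold change of 3.44 ± 0.58. The small subunit cox8b was at a median of 2140 CPM against 525 (2.02 ± 0.15). For ATP synthase the c-ring gene atp5g1 stood highest, at a median of 2080 CPM against 457 (2.32 ± 0.23).

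The machinery that makes and imports mitochondrial proteins was higher by smaller amounts. Of 73 mitochondrial ribosomal protein genes, 62 were called higher and none lower (median 0.87), and their share of gene counts was 0.366% ± 0.0353 against 0.238% ± 0.0266, or 0.691% ± 0.0853 against 0.268% ± 0.0279 of counts that were not mitochondrially encoded, without overlap either way. Of 17 genes of mitochondrial DNA and RNA maintenance, 9 were called higher and none lower (median 0.51). The transcription factor tfb2m, which opens mitochondrial promoters, was at a median of 104 CPM against 61.3 (0.91 ± 0.20). The packaging factor tfam was not called (0.44 ± 0.18, adjusted p = 0.0511), and the mitochondrial RNA polymerase polrmt had a value of -0.43 ± 0.18 (adjusted p = 0.0648). Of 22 import genes, 14 were called higher and 3 lower (median 0.79). The paralogs timm17a and timm17b, both channel components of the inner-membrane translocase, moved in opposite directions: timm17a was at a median of 191 CPM against 92.2, and timm17b at 2.14 CPM against 3.81.

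Fuel oxidation showed the same direction over 3 routes. The citrate cycle and pyruvate dehydrogenase had 17 of 21 genes called higher and none lower (median 0.85; sdha and sdhb are counted here and in complex II). Citrate synthase, cs, ranged from 1280 to 2450 CPM in transgenic libraries (median 1670), from 707 to 1030 in trained ones (median 842) and from 438 to 751 in untrained wild type (median 592), with a log2 fold change of 1.02 ± 0.16 between the first 2. Fatty acid uptake and oxidation had 18 of 27 called higher and none lower (median 0.84), and 7 of the 27 had every transgenic library above every trained one. The share of gene counts overlapped, at 0.676% to 0.94% against 0.413% to 0.78%. Without mitochondrially encoded counts it did not, at 1.3% to 1.83% against 0.468% to 0.892%. In trained muscle 8 of these genes were called higher than in untrained wild type (median 0.58). The carnitine palmitoyltransferase cpt1b, which lets long-chain fatty acids into mitochondria, was at a median of 434 CPM against 196 (1.07 ± 0.21), and the trifunctional protein subunit hadhb at 977 CPM against 417 (1.23 ± 0.18). Branched-chain amino acid breakdown had 17 of 20 called higher and none lower (median 0.93). Its first enzyme, bcat2, was at a median of 215 CPM against 53.1, a log2 fold change of 2.15 ± 0.20 with no overlap.

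Genes of mitochondrial shape and removal had no common direction, with 6 of 27 called higher and 5 lower (median -0.08; the sign turned when mitochondrial genes were left out of the scaling). Among NAD and sirtuin genes, 6 of 15 were called higher and 3 lower. The transhydrogenase nnt, which makes mitochondrial NADPH, was at a median of 628 CPM against 96.1 (2.59 ± 0.27). The nicotinamide riboside kinase nmrk1 was at a median of 52.1 CPM in transgenic libraries and 0.438 in trained ones (6.77 ± 0.31), and its muscle-enriched relative nmrk2 was at a median of 1190 CPM against 396 (1.36 ± 0.19). Of 24 antioxidant and uncoupling genes, 7 were called higher and 4 lower. The mitochondrial superoxide dismutase sod2 was higher by 1.14 ± 0.17 and gclc, the rate-limiting enzyme of glutathione synthesis, by 1.97 ± 0.19. In the opposite direction, an uncoupling protein gene with the symbol ucp3 (ENSDARG00000091209) ranged from 6.06 to 72.5 CPM against 469 to 794 (-3.99 ± 0.43). A second identifier with the same symbol, ENSDARG00000043154, was not called (-0.42 ± 0.38).

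Contractile genes separated by fibre type. Of 37 fast fibre genes, 30 were called lower and 3 higher, with a median log2 fold change of -4.15, and 29 of the 37 had every transgenic library below every trained one. They took 1.58% ± 0.516 of gene counts in transgenic libraries, 22.5% ± 1.51 in trained ones and 23% ± 4.09 in untrained wild type. Of counts that were not mitochondrially encoded they took 2.98% ± 0.92 and 25.4% ± 1.7 in the compared groups. The fast myosin heavy chain gene myhc4 ranged from 17.9 to 212 CPM in transgenic libraries (median 23.6), from 39200 to 81000 in trained ones (median 67300) and from 17800 to 124000 in untrained wild type (median 63900), with a log2 fold change of -10.38 ± 0.76 (adjusted p = 6.72e-10). Its highest transgenic value still lay far below the lowest trained one. The parvalbumins, calcium buffers of fast fibres, followed: pvalb1 ranged from 1.35 to 10.9 CPM against 1550 to 7980, with values of -9.88 for pvalb1, -9.49 for pvalb3 and -8.98 for pvalb2. The fast troponin I gene tnni2a.1 had 0 counts in the 7 transgenic libraries and 197 in the trained ones, which is at least 50.9-fold lower with a floor of 3 counts over the group. The 3 fast-list genes called higher were tnni2b.1, a fast troponin I (3.54 ± 0.44), myhb, a myosin heavy chain (1.80 ± 0.45), and atp2a1, a calcium pump (0.88). Fast myosin genes are close copies of each other, and reads with more than 1 alignment came to 6.65% ± 0.906 of reads in transgenic libraries and 9.05% ± 0.847 in trained ones, so values of single copies are uncertain.

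Slow fibre genes went the other way, with 19 of 24 called higher and 1 lower (median 1.95). They took 3.82% ± 0.772 of gene counts in transgenic libraries, 0.998% ± 0.287 in trained ones and 0.856% ± 0.123 in untrained wild type. Without mitochondrially encoded counts the shares were 7.17% ± 1.35 and 1.13% ± 0.331, a difference of 6.05 percentage points. The slow myosin heavy chain smyhc2 ranged from 4410 to 12300 CPM in transgenic libraries (median 7340) and from 778 to 1790 in trained ones (median 1250), a log2 fold change of 2.57 ± 0.29. Slow and cardiac troponin C, tnnc1b, ranged from 3500 to 5000 CPM against 374 to 757 (2.95 ± 0.19). Myoglobin, mb, the oxygen-binding protein of red muscle, ranged from 2580 to 4910 CPM in transgenic libraries (median 2970), from 337 to 732 in trained ones (median 429) and from 140 to 406 in untrained wild type (median 281). The log2 fold change of mb was 2.90 ± 0.23, and no transgenic library overlapped a trained one. The exception was myoz2a, a Z-disc protein, which was lower by 2.27 ± 0.21 (log2 fold change -2.27), while its paralog myoz2b was higher by 2.01 ± 0.19.

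Calcium handling genes of one family could differ in opposite directions. Of 21 excitation-contraction coupling genes, 12 were called lower and 5 higher (median -1.16; 3 of the genes lower are also in the fast list). The fast sarcoplasmic reticulum pump atp2a1l ranged from 103 to 1090 CPM in transgenic libraries and from 23200 to 38500 in trained ones (-5.97 ± 0.44), while the slow and cardiac pump atp2a2a ranged from 4630 to 7780 against 1200 to 2400 (1.88 ± 0.22). The pump gene atp2a1, although in the fast list, was also higher, with 5370 to 7900 CPM against 2270 to 5320 (0.88 ± 0.21). The ryanodine receptor gene ryr1b, the calcium release channel of zebrafish fast fibres, was at a median of 45.9 CPM against 635 (-3.62 ± 0.23), and ryr1a, its slow-fibre paralog, at 589 against 147 (1.89 ± 0.19). The voltage sensor gave cacna1sb at 40.3 CPM against 212 (-2.43 ± 0.22) and cacna1sa at 120 against 33.3 (1.99 ± 0.19). The calcium store protein casq1a was at a median of 30.9 CPM against 499 (-4.15 ± 0.31), and casq2 stood at 227 against 44.2 (2.46 ± 0.23).

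**Figure D2:**
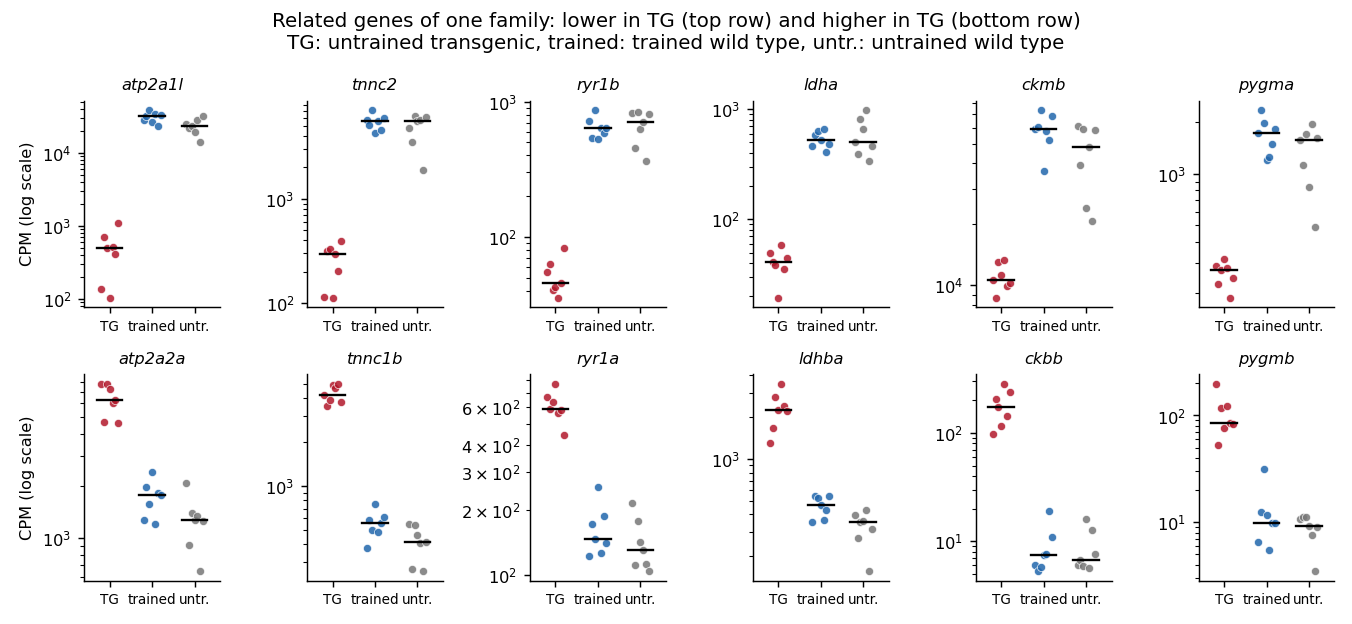
CPM per library on log axes for 6 pairs of related genes, with 1 point per library, bars at group medians, and the member that was lower in transgenic muscle in the top row. For atp2a1l the transgenic libraries lie between 103 and 1090 CPM and the trained ones between 23200 and 38500, whereas for atp2a2a they lie between 4630 and 7780 and between 1200 and 2400.

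Glycolysis and glycogen genes were lower in transgenic muscle in 20 of 31 cases and higher in 6 (median -1.27). Their share of gene counts was 1.23% ± 0.16 against 6.6% ± 1.09 in trained and 5.29% ± 1.34 in untrained wild-type libraries, without overlap between the compared groups. Of counts that were not mitochondrially encoded, the shares were 2.32% ± 0.231 and 7.43% ± 1.21, again without overlap. Enolase 3, eno3, the muscle form, ranged from 976 to 1330 CPM in transgenic libraries and from 5050 to 10500 in trained ones (-2.72 ± 0.28). Glycogenin gyg1b, which primes glycogen, ranged from 0.16 to 1.58 CPM against 42.7 to 128 (-6.80 ± 0.50). The genes called higher were paralogs of genes that were lower, or hexokinase. Hexokinase 2, hk2, which traps glucose in the cell, was at a median of 60.9 CPM against 25 (1.22 ± 0.23). Glycogen phosphorylase pygma stood at 273 CPM against 1730 (-2.71 ± 0.25) and pygmb at 85.9 against 9.93 (3.07 ± 0.37). Triosephosphate isomerase tpi1b stood at 557 CPM against 2120 and tpi1a at 8.88 against 0.467.

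Lactate dehydrogenase genes showed the same opposite directions. The form ldha, known for making lactate from pyruvate, ranged from 19.3 to 58.9 CPM in transgenic libraries (median 40.8) and from 409 to 658 in trained ones (median 526), with a log2 fold change of -3.71 ± 0.26. The heart-type form ldhba, which favours lactate use, ranged from 1300 to 3470 CPM (median 2250) against 355 to 546 (median 466), with 2.32 ± 0.22. Neither gene overlapped between the groups. The lactate exporter slc16a3 was higher in transgenic than in trained muscle (1.21 ± 0.27), with a median of 203 CPM against 95.6 and 166 in untrained wild type. Creatine genes were called lower in 5 of 10 cases and higher in 2, and took 2.15% ± 0.181 of gene counts against 9.68% ± 0.659, or 4.04% ± 0.228 against 10.9% ± 0.706 without mitochondrially encoded counts. The muscle creatine kinase ckmb ranged from 8660 to 13300 CPM against 36800 to 73100 (-2.41 ± 0.24), and the brain-type form ckbb from 96.9 to 284 against 5.27 to 19.1 (4.34 ± 0.36). Of the mitochondrial forms, ckmt2b was higher by 0.74 ± 0.20 with overlapping groups, and ckmt1 and ckmt2a were not called higher.

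**Figure D3:**
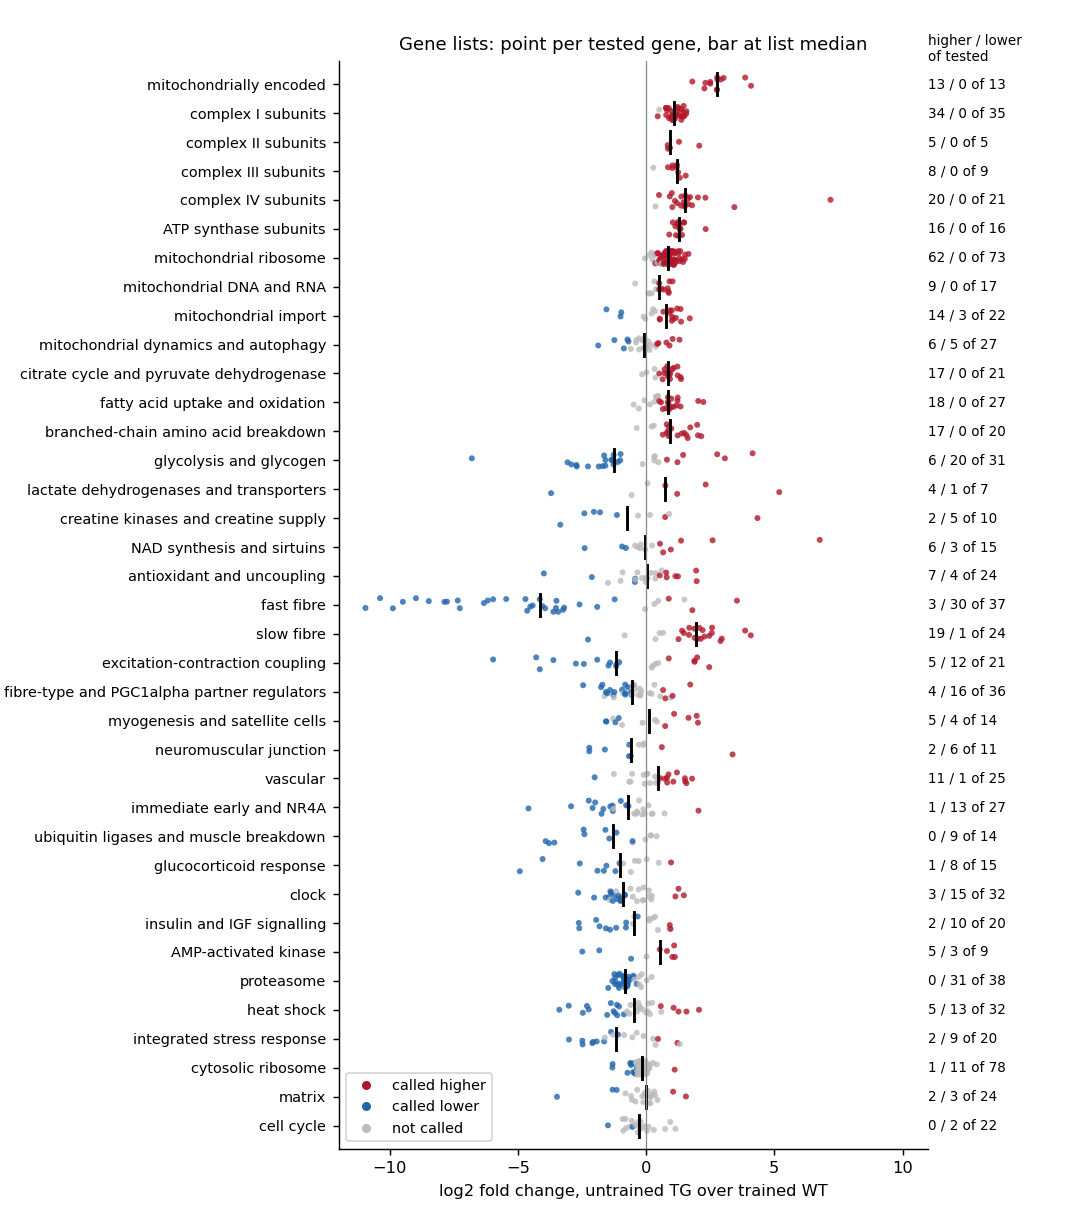
Log2 fold change of every tested gene in the 37 gene lists that are not cell-type markers, transgenic over trained, with the list median as a black bar and the numbers called higher and lower at the right; heights within a row are spread at random for legibility. Medians run from -4.15 for fast fibre genes to 2.76 for mitochondrially encoded genes.

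Several lists linked to activity, hormone signalling and protein breakdown held more genes called higher in trained than in transgenic muscle than the reverse. The direct contrast does not show which group differed from untrained wild type, so counts against that group are given too. Over the same 18947 genes, 3468 were called higher and 4764 lower in transgenic muscle against untrained wild type. For trained muscle against untrained wild type the numbers were 426 and 133. These numbers are the background for list counts against untrained wild type, here and below. Of 27 immediate early and NR4A genes, 13 were called lower in transgenic muscle and 1 higher (median -0.69). Against untrained wild type, transgenic muscle had 4 of the 27 called lower and 2 higher. Trained muscle had 5 higher and none lower. The orphan nuclear receptor nr4a3, known as a strongly exercise-induced gene in human muscle, ranged from 0.922 to 19.1 CPM in transgenic libraries (median 3.15), from 57.7 to 183 in trained ones (median 136) and from 1.38 to 8.5 in untrained wild type (median 2.07). Its log2 fold change was -4.59 ± 0.59 (adjusted p = 1.94e-06). Against untrained wild type the values of the same fit were 5.05 ± 0.61 for trained and 0.46 ± 0.52 for transgenic muscle, and these comparisons share libraries with the direct one. The AP-1 gene junbb showed the same order, with medians of 9.49 CPM in transgenic, 39.7 in trained and 10.7 in untrained wild-type muscle (-2.09 ± 0.35). Not every member was called: nr4a1 had -0.36 ± 0.40 (95% interval -1.19 to 0.47) and egr1 0.72 ± 0.31 (adjusted p = 0.0648). The missed threshold does not show equal levels, and the egr1 value was opposite in sign to the list median.

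Of 14 genes of ubiquitin ligases and muscle breakdown, 9 were called lower in transgenic muscle and none higher (median -1.30). Against untrained wild type, transgenic muscle had 10 of the 14 called lower and none higher. Trained muscle had 3 higher and none lower. The muscle RING-finger ligase trim63a, a marker of muscle protein breakdown, ranged from 59.6 to 170 CPM in transgenic libraries (median 81.1), from 930 to 2490 in trained ones (median 1560) and from 108 to 790 in untrained wild type (median 358). Its log2 fold change was -3.79 ± 0.37, and the compared groups did not overlap. Atrogin-1, fbxo32, ranged from 6.17 to 67.1 CPM against 303 to 809, with 92.8 to 579 in untrained wild type (-3.92 ± 0.43). For these genes untrained wild type lay between the others in its median: the values against it were 1.98 ± 0.34 for trained and -1.81 ± 0.34 for transgenic muscle in trim63a, and 0.93 ± 0.38 and -2.99 ± 0.41 in fbxo32. The forkhead factor foxo3b, a regulator of both ligases in mammals, was lower by 1.16 ± 0.33 (log2 fold change -1.16), with overlapping groups.

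Of 15 glucocorticoid response genes, a list that includes the pyruvate dehydrogenase kinases, 8 were called lower in transgenic muscle and 1 higher (median -1.04). These kinases switch off glucose entry into the citrate cycle. Against untrained wild type, transgenic muscle had 4 of the 15 genes called lower and none higher. Trained muscle had 1 higher and none lower. The kinase pdk2b ranged from 47.7 to 212 CPM in transgenic libraries (median 113), from 1440 to 2400 in trained ones (median 1930) and from 85.7 to 632 in untrained wild type (median 267), with -4.04 ± 0.38. The kinase pdk3b was at medians of 1.13, 33.1 and 49 CPM in the same order (-4.93 ± 0.26), so it was high in both wild-type groups. The family member pdk4 was not called (0.49 ± 0.27, 95% interval -0.07 to 1.05). Insulin and IGF signalling had 10 of 20 genes called lower and 2 higher (median -0.49). Against untrained wild type, transgenic muscle had 5 of the 20 called lower and 3 higher. Trained muscle had 4 higher and none lower. The insulin receptor substrate irs2a ranged from 6.01 to 19.1 CPM against 46.2 to 86.7 (-2.63 ± 0.30), and the kinase akt2l from 35.8 to 55.4 against 131 to 184 (-1.82 ± 0.16).

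**Figure D4:**
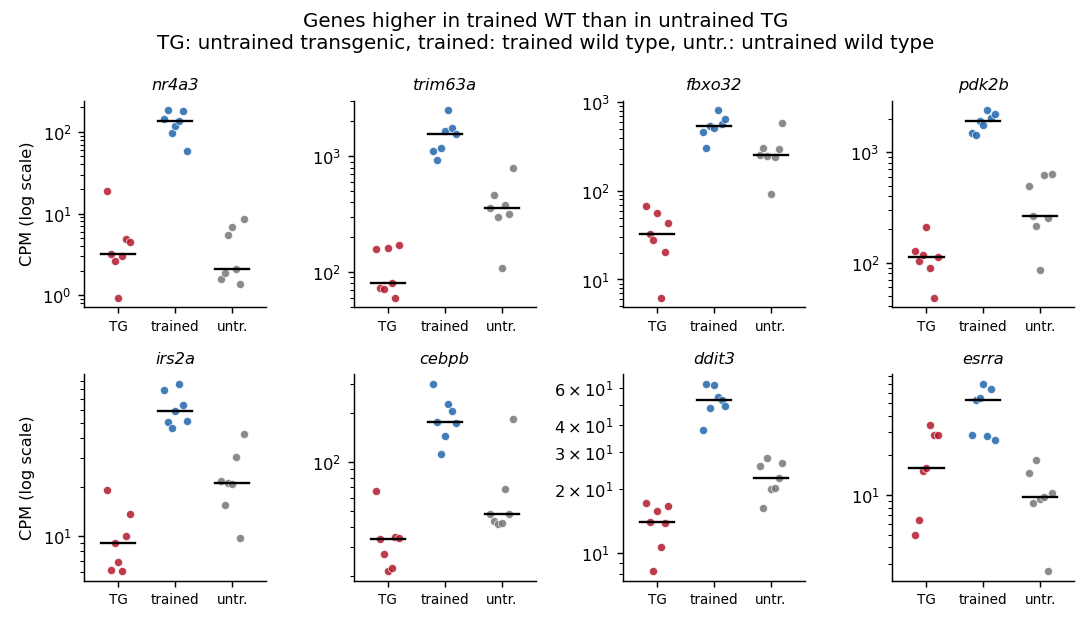
CPM per library on log axes for 8 genes called higher in trained than in transgenic muscle, with 1 point per library and bars at group medians. The trained libraries of nr4a3 lie between 57.7 and 183 CPM, above all transgenic ones (0.922 to 19.1) and all untrained wild-type ones (1.38 to 8.5), whereas esrra overlaps between the compared groups.

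The receptors through which PGC1alpha acts were examined with other regulators of fibre type. Of 36 such genes, 16 were called lower in transgenic muscle and 4 higher (median -0.55). The oestrogen-related receptor esrra ranged from 4.97 to 33.9 CPM in transgenic libraries (median 16), from 26.2 to 70.1 in trained ones (median 52.8) and from 2.62 to 18.4 in untrained wild type (median 9.64). Its log2 fold change was -1.28 ± 0.41 (adjusted p = 0.0146), with overlapping groups. The retinoid receptor rxrga was at a median of 7.53 CPM against 38.6 (-2.46 ± 0.28), and sox6, known in zebrafish and mouse as a repressor of slow fibre genes, at 10.3 against 30 (-1.57 ± 0.21). The factors nrf1 and gabpa, which drive nuclear mitochondrial genes in mammals, were not called (-0.23 ± 0.15 and 0.14 ± 0.13). Of 32 clock genes, 15 were called lower and 3 higher (median -0.91). The clock activator npas2 was at medians of 0.798 and 4.17 CPM (-2.65 ± 0.32) and the repressor per3 at 4.48 and 16 (-2.03 ± 0.36), while arntl1a, the partner of clock proteins, stood at 7.18 against 1.72 (1.47 ± 0.37). The labels used here give no time of day for the sampling, and its part in the clock values was not tested.

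Some genes were not called between transgenic and trained muscle although both had higher medians than untrained wild type. They were chosen after their values were seen. Lipoprotein lipase, lpl, which frees fatty acids from blood lipids, ranged from 81.6 to 265 CPM in transgenic libraries (median 108), from 129 to 187 in trained ones (median 146) and from 19.9 to 58.9 in untrained wild type (median 34.4). The direct log2 fold change was -0.07 ± 0.27 (adjusted p = 0.868), with a 95% interval of -0.63 to 0.50. Against untrained wild type the values were 2.06 ± 0.28 for transgenic and 2.12 ± 0.28 for trained muscle. The endothelial VEGF receptor kdrl gave 0.05 ± 0.27 (interval -0.50 to 0.61), with medians of 82.1, 64.7 and 30.4 CPM. The fatty acid sensor pparaa gave -0.26 ± 0.25 (interval -0.78 to 0.26), with medians of 38.1, 49.7 and 20.8 CPM. The missed threshold does not show equal levels, and differences up to the ends of these intervals remain possible.

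**Figure D5:**
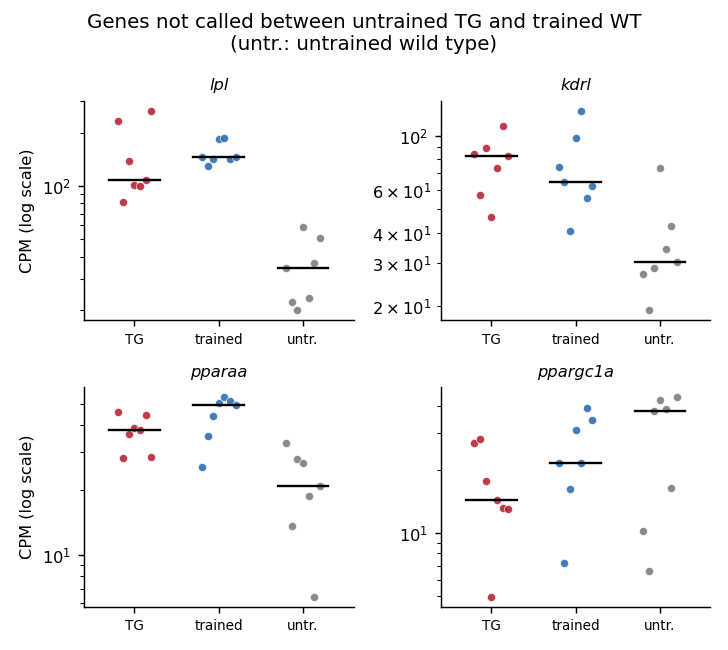
CPM per library on log axes for lpl, kdrl, pparaa and ppargc1a, none of which was called between transgenic and trained muscle, with bars at group medians. For lpl the transgenic libraries (81.6 to 265 CPM) and the trained ones (129 to 187) overlap and both lie above the untrained wild-type ones (19.9 to 58.9).

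Blood vessel genes were called higher in 11 of 25 cases and lower in 1 (median 0.48). The growth factor vegfab, which drives capillary growth, ranged from 251 to 437 CPM in transgenic libraries and from 69.8 to 172 in trained ones (1.51 ± 0.22), with 43.4 to 118 in untrained wild type. Its paralog vegfaa was not called (-0.55 ± 0.31, 95% interval -1.19 to 0.10). The endothelial transcription factor fli1b was higher by 1.79, and apln, a peptide that guides vessel growth, was lower with medians of 0.309 and 1.37 CPM (-2.01 ± 0.32). Of 11 neuromuscular junction genes, 6 were called lower and 2 higher (median -0.60). Acetylcholinesterase, ache, ranged from 20.5 to 42.2 CPM against 108 to 179 (-2.22 ± 0.23). The acetylcholine receptor subunit chrng, the embryonic form in mammals, was at a median of 9.19 CPM against 0.761 (3.37 ± 0.41), and the adult form chrne at 35.9 against 67.6 (-0.66 ± 0.22).

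Growth regulators of muscle split. Of 14 myogenesis and satellite cell genes, 5 were called higher and 4 lower (median 0.10; the sign turned under library totals, among other settings). Myostatin, mstnb, a brake on muscle growth, ranged from 59.7 to 107 CPM in transgenic libraries and from 10.6 to 31.6 in trained ones (2.02 ± 0.26). The myogenic factor myf6 ranged from 7.43 to 13.6 CPM against 15.9 to 43.8 (-1.57 ± 0.24), and the satellite cell factor pax7b was at medians of 1.79 and 0.74 CPM (1.09 ± 0.22). AMP-activated kinase, an energy sensor, had 5 of 9 subunit genes called higher and 3 lower, with log2 fold changes from -2.49 to 1.12. The highest value belonged to prkag1, at medians of 10.8 and 4.96 CPM (1.12 ± 0.15).

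Of 38 proteasome genes, 31 were called lower in transgenic muscle and none higher (median -0.81). Their share of gene counts was 0.0852% ± 0.0127 against 0.179% ± 0.0368, but without mitochondrially encoded counts it was 0.16% ± 0.0197 against 0.201% ± 0.0405, and the groups overlapped. The core subunit psma5 ranged from 15.1 to 25.3 CPM against 39.7 to 64.9 (-1.32 ± 0.15). Of 32 heat shock genes, 13 were called lower and 5 higher (median -0.48). The inducible chaperone hsp70.3 ranged from 1.52 to 6.89 CPM in transgenic libraries, from 13.7 to 81.1 in trained ones and from 4.81 to 140 in untrained wild type (-3.39 ± 0.63). The mitochondrial chaperones hspe1, hspa9 and hspd1 were among the 5 higher genes, with values of 1.57 ± 0.19, 1.07 ± 0.19 and 0.57. The small heat shock protein hspb7, known from heart and muscle, was higher by 2.06 ± 0.22. The integrated stress response had 9 of 20 genes called lower and 2 higher (median -1.19). The stress factor ddit3 ranged from 8.21 to 17.2 CPM against 38 to 62.6 (-1.93 ± 0.17), with 16.4 to 27.9 in untrained wild type. The amino acid transporter chain slc3a2b was at a median of 21.8 CPM against 235 (-3.01 ± 0.44). Of 78 cytosolic ribosomal protein genes, 11 were called lower and 1 higher (median -0.16). Matrix genes gave 2 higher and 3 lower of 24, with the collagen col1a1a at -0.04 ± 0.24 (95% interval -0.54 to 0.46) and the muscle laminin lama2 at -3.48 ± 0.36. Cell cycle genes gave 2 lower and none higher of 22. Against untrained wild type their median log2 fold change was -2.01 for transgenic muscle, with 17 called lower. For trained muscle it was -2.0, with 1 called lower. Over all tested genes, 4764 and 133 were called lower in these comparisons. The counts of 17 and 1 therefore do not show that the groups differ in cell cycle genes. Untrained wild-type replicates 3 and 7 had germ line marker shares of 0.0169% and 0.0156%, against a group median of 0.000822%. The part of this unevenness in the cell cycle values was not tested.

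The largest fold changes were ranked over the 3075 called genes that had a full symbol, averaged 50 counts or more and did not overlap between groups, so other genes with large folds are not named. Highest of these in transgenic muscle were cryaa, an alpha crystallin of the lens that also acts as a chaperone, with 4590 counts over the transgenic libraries and 17 over the trained ones, then ndufa4, and zic2b, a zinc finger developmental factor, with 2559 counts against 22. The others of the 12 were cpdb, nmrk1, MPV17L, atp1b1b, foxj1b, cplx1, mtbl, sh2d4ba and a gene annotated as 1 of many copies of TMPRSS3. The sodium pump subunit atp1b1b had 350 to 1420 CPM in transgenic libraries, 3.81 to 12.7 in trained ones and a mean of 6.158 in untrained wild type (6.54 ± 0.44). The ciliary master regulator foxj1b ranged from 6.99 to 64 CPM against 0.211 to 0.87, with 0.337 to 5.75 in untrained wild type. Against untrained wild type its values were 3.71 ± 0.55 for transgenic and -2.27 ± 0.54 for trained muscle. The motile cilia list that holds foxj1b had a median of -0.53, with 3 of 21 genes called higher and 2 lower. Against untrained wild type the list medians were -2.65 for transgenic and -2.04 for trained muscle. Motile cilia shares in untrained wild-type replicates 3 and 7 were 0.0216% and 0.0278%, against a group median of 0.00448%. The part of this unevenness in the foxj1b values was not tested. Lowest were tecrl2b, a relative of trans-enoyl-CoA reductase, with 1 count over the transgenic libraries against 4665, and then myha, myhc4, pvalb1, helt, pvalb3, pvalb2, TMEM233, rtn2b, mybpc2b, scn4aa and tnni2a.3. The muscle sodium channel scn4aa had 12 counts against 4047, the reticulon rtn2b 24 against 12652 and the transcription factor helt 2 against 2896. For genes so close to 0 the fitted fold depends on the prior count, so counts are given instead. For myha a single trained library lay at 17.8 CPM while the trained median was 1580.

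Markers of other tissues were checked over 12 lists. The summed share of all gene counts overlapped between the compared groups in 11 of them. Without mitochondrially encoded counts it overlapped in 10, since fat markers then took 0.0467% to 0.0689% in transgenic libraries and 0.00905% to 0.0298% in trained ones. Red blood cell markers took 0.0308% to 0.097% of gene counts in transgenic libraries and 0.0263% to 0.11% in trained ones, with 2 of 10 genes called higher. White blood cell markers took 0.0126% to 0.0238% against 0.00629% to 0.0217% (0.0246% to 0.0415% against 0.00729% to 0.0249% without mitochondrially encoded counts), with 7 of 15 called higher and none lower (median 0.65). Of all gene counts, fat markers took 0.0247% to 0.0394% against 0.00781% to 0.0261%, with 3 of 6 called higher. Skin markers gave 1 of 13 lower (median -0.7) and nerve and glia 3 of 14 higher (median 0.02). Bone and cartilage gave 2 of 9 higher and 1 lower (median -0.45). Germ line markers gave 3 of 12 higher and 1 lower (median -1.14), and motile cilia 3 of 21 higher and 2 lower (median -0.53). No liver (9), gut and pancreas (10) or heart (5) gene tested was called by edgeR. At an unadjusted p under 0.05 these lists held 0, 1 and 1 genes, DESeq2 called none of them, and limma-voom called 1 heart gene, tnni1b, which is also in the slow fibre list. Gut and pancreas markers had a median of -2.34 and reached 0.0524% in a single trained library, against at most 0.00498% in transgenic ones. Lens markers did not overlap with either total, with 0.000908% to 0.00166% in transgenic libraries and 4.66e-05% to 0.000205% in trained ones of all gene counts. Of the 17 lens genes only 6 were tested, 2 of which were called, cryaa and bfsp2, a lens filament protein at medians of 1.25 and 0.191 CPM. Over the transgenic libraries cryaa had 4590 counts and bfsp2 803, so the lens share there rested mostly on cryaa. The untrained wild-type group was uneven in some of these markers. Its replicates 3 and 7 had germ line shares of 0.0169% and 0.0156%, against a group median of 0.000822%. Their motile cilia shares were 0.0216% and 0.0278% (group median 0.00448%). Replicate 7 also had a skin share of 0.352% (group median 0.0745%) and a TMM scaling factor of 2.01, the highest of all libraries. The part of these tissues in the results above was not tested.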

How the data were processed

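RNA of adult zebrafish skeletal muscle was sequenced from both ends of fragments in strand-marked poly(A) libraries, per the labels' protocols. The authors deposited raw read counts per gene for 31953 identifiers. Tools listed are STAR 2.4.0i, HTSeq 0.9.1 and DESeq2, with the build GRCz10, per the submitters' processing notes. Which annotation release was used, and whether counting used strand, is not given in the sources used here. Hence overlapping and antisense genes and close paralogs are uncertain. The authors also deposited log2 fold changes for comparisons with untrained wild type, which served only for gene symbols (31312 identifiers matched, and 515 symbols had more than 1 identifier). The 21 columns of values per sample in each of these 2 tables were not used. Entries that name no gene came to 15% to 18.6% of reads in the compared libraries and were left out.

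Counts were tested with edgeR 4.0.16 in R 4.3.3 (quasi-likelihood F test, TMM scaling, filterByExpr, Benjamini-Hochberg adjustment, adjusted p under 0.05). A single model held the 21 libraries, with no term besides the group. The plan foresaw 8 libraries in each group, and 7 were at hand. Standard errors were derived from the same fit, as the absolute log2 fold change over the square root of its F statistic. The 95% intervals were built from these standard errors. Both are therefore approximate, above all for genes with counts near 0. The common biological coefficient of variation was 49.5%. The test was also run on simulated data with this design and 19346 genes. It recovered 56 of 100 planted differences of 1 log2 unit and 88 of 100 planted at 2, and made 7 false calls. In the real counts 7887 of 18947 genes were called. Mitochondrially encoded genes took 46.8% of these counts in transgenic and 11.2% in trained libraries. Recovery and false calls with differences on that scale were not tested. No 2 libraries of a group agreed within sampling noise.

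Gene lists (50, of which 13 are tissue markers), and the groups compared, were chosen with earlier results of these data known, so lists are described by counts and medians and were not tested. Shares of counts use all gene counts of a library and, as an alternative, those left without the mitochondrially encoded genes. Genes were named by a rule: among genes that were called, averaged 50 counts or more, had a full symbol and did not overlap, the 12 highest and 12 lowest fold changes and the 8 largest differences in CPM each way, then for each list its 3 members of smallest p, and ppargc1a, ppargc1b, actc1b, esrra, nr4a3, ndufa4 and mb. Further list members were named after their values were seen. Alternatives were DESeq2 1.42.0, limma 3.58.1 (voom with quality weights), other scalings, no filter, only the 2 groups, robust dispersion, a test against a fold of 2, the replicate number as a block and each library left out. No reference sequence or coordinates were used.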

Additional observations from a re-analysis of the deposited data

Results flagged for a closer look

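Outlying libraries were looked for in 26 groups of 7 values (depth, shares of counts and the CPM of single genes), and chance flags about 1 in 20 groups. There were 3 flags. Transgenic replicate 7 held 42.8 M gene counts, fewer than the other transgenic libraries, and its gap to the next was 0.582 of the group's range. Transgenic replicate 1 had 19.1 CPM of nr4a3, far above the other transgenic libraries (0.785 of the range) and below the lowest trained library. Trained replicate 4 had 732 CPM of myoglobin (mb), above the other trained libraries (0.748 of the range) and below the lowest transgenic one.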

How the results depend on the processing

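The number of genes called was 7887. It came to 1860 (766 higher, 1094 lower) when a fold of 2 was tested, which is a stricter test. With library totals as the only scaling 2179 were called higher, and the cause of that shift was not tested. Leaving out each library in turn gave 7417 to 7877 calls, 3358 to 3718 of them higher and 3967 to 4168 lower. DESeq2 called 8428 and limma-voom 8699. The share taken by nuclear respiratory genes differed by 9.76 percentage points, and that of slow fibre genes by 6.05, when mitochondrially encoded counts were left out of the total.
Replicate numbers are shared between groups, but nothing says they mark a pairing, and same-numbered libraries correlated at -0.25 to 0.15 in their deviations. With the replicate block 7117 genes were called (3218 higher, 3899 lower), 6873 of them shared with the fit without it. Of 190 gene values none reversed under the alternatives run, where the fit of only the 2 groups gave 186 of them. Most of these genes were named for large differences or for the smallest p of a list in the same libraries. Agreement in sign was therefore likely beforehand and is not independent support. Calls were lost by 50 under the fold of 2, 7 under library totals, 5 under the block, 4 with no filter, 1 with limma-voom and at most 4 without a single library. The call of ppargc1b was lost under 4 other settings (library totals, no filter, the block and the fold of 2) and without 6 single libraries.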

Other observations

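Several further genes of stress and hormone signalling were lower in transgenic muscle with no overlap. The inflammatory and stress factor cebpb ranged from 21.3 to 66.1 CPM in transgenic libraries, from 111 to 301 in trained ones and from 41.9 to 184 in untrained wild type, with a log2 fold change of -2.48 ± 0.35 between the first 2. The glucocorticoid target klf15 was at medians of 4.22, 27.6 and 9.17 CPM in the same order (-2.44 ± 0.33). The insulin-like growth factor binding protein igfbp1a, a fasting-responsive gene in fish and mammals, was at 3.57, 15.1 and 6.6 CPM (-1.95 ± 0.35). The metal-binding protein mt2 was at 9.31, 83 and 11.7 CPM (-2.59 ± 0.64), and its untrained wild-type libraries ranged from 2.51 to 103.

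Identifiers that share a symbol did not always share a direction. Of the 2 identifiers named mfn1b, a mitofusin of mitochondrial fusion, one gave medians of 4.37 against 9.5 CPM (-1.24 ± 0.19) and the other of 39.6 against 31.1 CPM (0.43 ± 0.15), and both were called.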
